A study of Mus musculus with 18 samples.

Results

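The 32 genes described here encode p53, its regulators, genes that p53 switches on, and enzymes of the DNA damage checkpoint and of DNA repair, out of 21887 mouse protein-coding genes considered. A region of accessible chromatin was counted for a gene where its summit lay in the gene body or within 50 kb of it on mm10, and each region was given to the nearest of the 32 genes. The lists held between 175 and 305 such regions, or 0.381% to 0.437% of all their regions. ATAC-seq, which cuts open chromatin with the Tn5 transposase, had been run on 18 samples of mouse haematopoietic stem cells (HSC) and of cells labelled HPC, in 6 groups. At 16 weeks of age there were 4 samples of wild-type HSC given PBS as vehicle and 4 given 5-fluorouracil at 150 mg/kg, each in 3 injections spaced by 3 weeks. At 8 weeks, without treatment, there were 2 wild-type HSC samples, 2 Kmt2c -/- HSC samples, 4 wild-type HPC samples and 2 Kmt2c -/- HPC samples. The knockout cells came from Kmt2c f/f; Vav-Cre mice, in which Cre acts in blood cells, and Kmt2c encodes a histone H3 lysine 4 methyltransferase of enhancers. The labels name no surface markers for either population and name RNA as the molecule, although ATAC-seq reads DNA.

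p53 is held at a low level by the ubiquitin ligase Mdm2 and its partner Mdm4. DNA breaks and stalled replication forks activate the kinases Atm and Atr, which act through Chek2 and Chek1 and stabilise p53, and p53 then raises the transcription of genes for growth arrest, repair, stress defence and cell death. Blood stem cells depend on this pathway to survive or be eliminated after chemotherapy, and 5-fluorouracil damages replicating DNA.

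Each group had a single peak list for all its samples, so there was no replicate, no test across samples and no p-value, and the 95% Wilson intervals below cover counting error over regions, which neighbouring regions share. The lists differed in length, from 40073 regions in wild-type HSC to 80100 in the vehicle list, and read depth is unknown. A region's fold enrichment over local background and its percentile, the rank of its −log10 p within its own list, are the authors' values or made from them. Ranks and folds of different lists are set side by side below and show no change by themselves. In bulk cells a region open in fewer cells and one less open in each cell cannot be told apart. Of 12 genes of stem and progenitor cells, 8 to 12 had a start region in each list. The starts of Kit, Cd34, Mecom, Hlf, Runx1, Spi1 and Meis1 carried a region in all 6 lists, and those of the T and NK cell genes Cd3e, Cd8a and Ncr1 in none. The starts of the progenitor genes Cd48 and Fcgr3 carried a region in the HPC and 16-week lists and in neither 8-week HSC list, that of Flt3 in all 6 lists and that of Mpo in the vehicle list alone.

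Promoter sequences of 25 of the 32 genes were found in RefSeq (GRCm38.p6), each from 250 bases before to 50 after a start. The 10-base p53 consensus decamer, which reads alike on both strands, was searched because p53 acts on many of these genes. It was present without mismatch in the promoters of 7 of the 25 genes (28.0%), against 1493 of 17492 protein-coding genes (8.54%). With 1 mismatch outside the core the shares came closer, at 14 of 25 genes (56.0%) against 41.0%. The genes with an exact match were Trp53, Mdm2, Ppm1d, Gadd45a, Ccng1, Sesn1 and Aen. Paired decamers with a spacer of at most 13 bases, the full p53 site, were found in 0 of the 25 genes and in 10 of all genes. The stretches around the decamer are shown for 6 of the 7 genes (the Aen window holds another start) because they place these letters inside the open regions described below. Capitals mark the decamer, and each sequence runs 5′ to 3′ on the strand of its gene.
Mdm2: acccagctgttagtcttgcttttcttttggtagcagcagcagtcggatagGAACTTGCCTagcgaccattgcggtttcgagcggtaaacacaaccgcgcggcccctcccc
Ppm1d: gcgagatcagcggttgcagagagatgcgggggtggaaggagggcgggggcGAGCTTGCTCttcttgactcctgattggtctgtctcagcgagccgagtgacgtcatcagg
Gadd45a: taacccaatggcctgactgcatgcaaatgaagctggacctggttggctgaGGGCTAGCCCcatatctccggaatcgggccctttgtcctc
Ccng1: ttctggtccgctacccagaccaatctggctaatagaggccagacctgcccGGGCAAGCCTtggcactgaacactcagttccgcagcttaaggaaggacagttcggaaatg
Sesn1: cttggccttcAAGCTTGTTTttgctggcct
Trp53: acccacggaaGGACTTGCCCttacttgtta

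The Mdm2 stretch is chr10:117710885-117710994 on the minus strand, and its decamer begins 186 bases before the start. The Ppm1d stretch is chr11:85311072-85311181 on the plus strand, with the decamer at 132 bases, and the Gadd45a stretch is chr6:67037408-67037497 on the minus strand, at 40 bases. The Ccng1 stretch is chr11:40755412-40755521 on the minus strand, at 185 bases. The Sesn1 stretch, chr10:41887256-41887285 on the plus strand, lies inside the gene body, 173 bases before the downstream of its annotated starts, and the Trp53 stretch is chr11:69580274-69580303 on the plus strand, at 75 bases. The decamers of Mdm2, Ppm1d, Gadd45a, Ccng1 and Sesn1 lay inside a region of all 6 lists. That of Trp53 lay in a region of the vehicle, 5-fluorouracil and wild-type HPC lists only. A match describes letters and is not evidence of binding.

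Other promoter letters, searched on both strands and chosen after results of these data were known, were also counted per gene. The CRE octamer TGACGTCA was in 4 of the 25 genes (16.0%) against 2.54% of all genes, and the stretch of Ppm1d above holds it in lower case near its end. The E-box CACGTG was in 28.0% against 8.91%, the E2F core TTCCCGC in 20.0% against 6.84%, and CCAAT in 64.0% against 42.3%. The GC box GGGCGG, at 64.0% against 49.2%, and the ETS core CCGGAAG, at 16.0% against 12.9%, differed less, and the AP-1 letters TGANTCA stood at 8.00% against 8.12%. TATAAA was in 20.0% against 14.8%. The letters of the E2F core and the GC box can share bases, as can those of the CRE and the E-box. The member promoters also held more G and C, with a median of 62.0% against 56.3%, and more CpG, with a median of 22 against 13, and the part of base composition in these shares was not tested.

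Nearly every member gene was open at its start. A region lay within 1 kb of the start (of either gene end for the 7 genes with no promoter entry) of 32 of 32 genes in every list except that of knockout HPC, where 31 of 32 had one. Over all protein-coding genes this share ran from 52.2% in wild-type HSC to 65.5% in the vehicle list. The start regions of members had a median percentile of 88.9 in the vehicle list, 88.4 in the 5-fluorouracil list, 71.4 and 73.7 in the wild-type and knockout HSC lists, and 74.7 and 70.7 in the wild-type and knockout HPC lists. Over all genes with a start region the medians were 82.2, 81.0, 68.6, 70.6, 72.0 and 68.2 in the same order. The medians of the members and of all genes were both highest in the 2 longest lists, those of 16 weeks. Within 200 bp of the start, 31 of 32 members had a region in wild-type HSC. In knockout HSC and in knockout HPC 30 had one, and in the other lists 32.

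**Figure D1:**
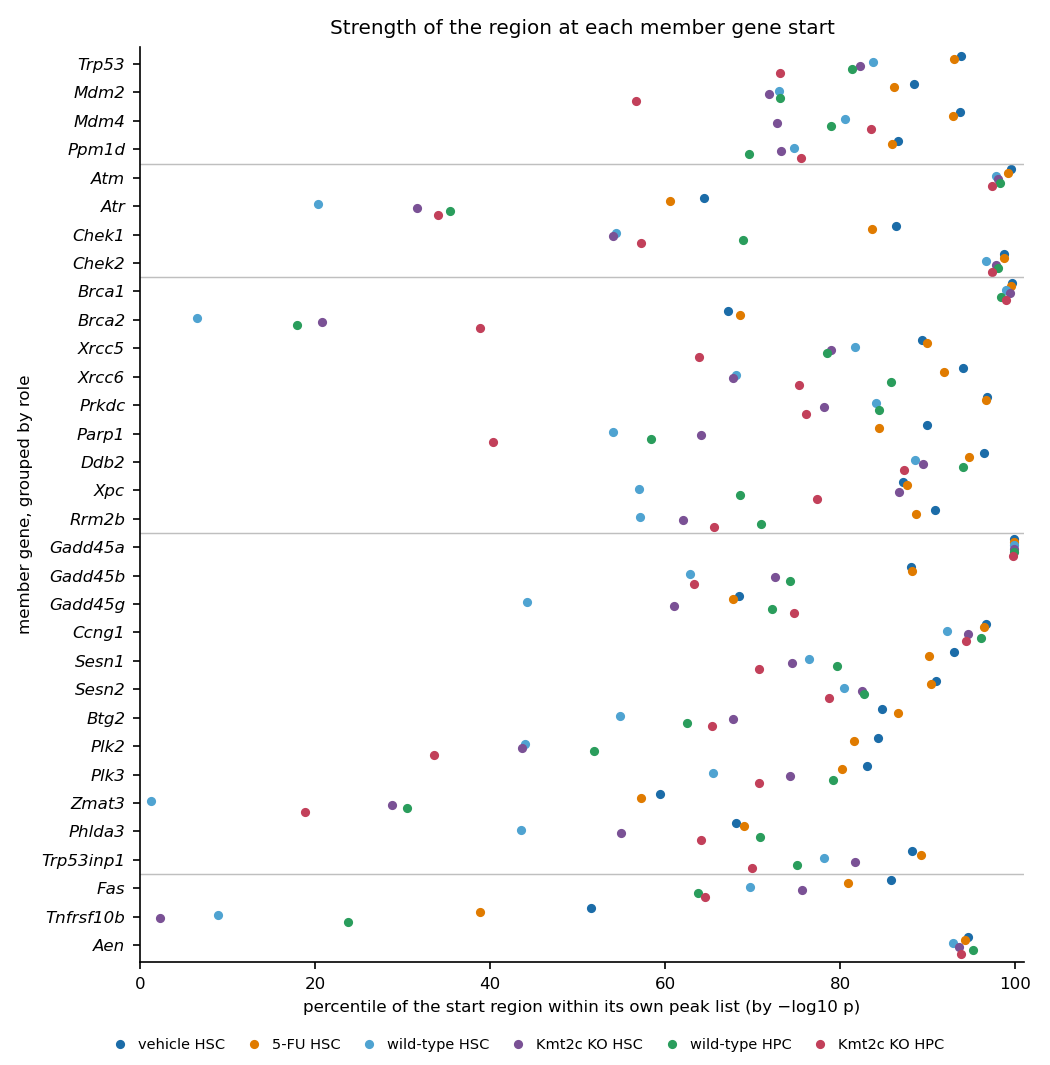
Percentile of the region at each member gene start within its own peak list (x axis, by −log10 p), with genes grouped by role (y axis) and 1 point per list. Gadd45a, Brca1, Atm and Chek2 sit near the right edge in all 6 lists, while Zmat3, Brca2, Atr and Tnfrsf10b reach the left side of the plot; Tnfrsf10b has no point for knockout HPC.

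Among p53 and its regulators, Mdm4, which binds p53 and blocks its activity, had start folds of 21.7 in the vehicle list, 22.0 with 5-fluorouracil, 21.3 and 18.7 in the wild-type and knockout HSC lists, and 21.5 and 24.5 in the wild-type and knockout HPC lists. The promoter window of its upstream annotated start, 133030587 on chromosome 1, overlapped no region of any list. Mdm2, which marks p53 for destruction and is itself a p53 target, had start folds of 18.4, 18.0, 17.7, 17.5, 17.1 and 13.5 in the same order. Ppm1d, a phosphatase that switches the damage response off, ran from 14.7 in wild-type HPC to 17.4 in knockout HPC. A second Ppm1d region inside the gene, 12.8 kb from the start, had higher folds than the start in each list: 26.9, 26.2, 22.4, 23.3, 32.6 and 34.4.

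Trp53 itself showed a split start. A region over the neighbouring and divergent Wrap53, at chr11:69578931-69579862, was in all 6 lists with folds of 14.2, 14.9, 15.7, 13.8, 13.3 and 12.4, and is the strongest within 1 kb of the Trp53 start. The region over the annotated start, chr11:69579966-69580504, which holds the decamer, was weaker: its fold was 3.93 in the vehicle list, 3.70 with 5-fluorouracil and 4.63 in wild-type HPC, and no region was listed there in either 8-week HSC list or in knockout HPC. Inside the gene, 5.65 kb from the start, a region was again in all 6 lists, with folds from 11.8 in the vehicle list to 20.5 in knockout HPC. Closer to the start, 1.17 kb downstream at chr11:69581118-69581697, another region was in all 6 lists, with folds from 6.70 to 11.3. In each list the Trp53 start proper was thus the weakest of these places or unlisted.

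Of the checkpoint kinases, Atm, which answers to double-strand breaks, and its effector Chek2 had strong starts. The Atm region spans the start it shares with Npat and had percentiles from 97.3 in knockout HPC to 99.5 in the vehicle list, and Chek2 ran from 96.6 in wild-type HSC to 98.7 in the 16-week lists. Atr, which answers to stalled forks, and its effector Chek1 ranked lower. The Atr start had percentiles of 64.4 in the vehicle list, 60.5 with 5-fluorouracil, 20.4 and 31.6 in the wild-type and knockout HSC lists, and 35.4 and 34.0 in the wild-type and knockout HPC lists, and Chek1 had 86.4, 83.6, 54.4, 54.1, 68.9 and 57.2. In every list the starts of the Atm and Chek2 pair ranked above those of the Atr and Chek1 pair.

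The repair genes covered a wide range. The Brca1 start region, shared with the divergent Nbr1, had percentiles from 98.4 in wild-type HPC to 99.6 in the vehicle list, whereas Brca2, its partner in homologous recombination, had 67.2 in the vehicle list, 68.5 with 5-fluorouracil, 6.54 and 20.8 in the wild-type and knockout HSC lists, and 17.9 and 38.8 in the wild-type and knockout HPC lists. The knockout HSC region at Brca1 did not reach the annotated Brca1 promoter (0 bases overlapped), while in the other 5 lists it covered all 300 bases. The end-joining genes Xrcc5 and Xrcc6, which form the Ku dimer, and Prkdc, the kinase that Ku recruits, had start percentiles between 63.9 and 96.8 over the lists. Parp1, a sensor of strand breaks, had start percentiles from 40.3 in knockout HPC to 89.9 in the vehicle list. Ddb2 and Xpc recognise damage for nucleotide excision repair. Ddb2 was at 87.3 or more in each list. Xpc has no strand here, and the higher-ranked of its gene ends was at 57.0 or more in each list. Its end at 91489305 on chromosome 6 had percentiles from 57.0 to 87.6, and its end at 91515888 from 53.8 to 86.8. Rrm2b, a p53-induced subunit of ribonucleotide reductase that supplies nucleotides for repair, ran from 57.1 to 90.8.

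Among the growth arrest and stress targets, Gadd45a, whose product slows the cell cycle after damage, had the highest-ranked start of all 32 genes in each list, with percentiles from 99.7 to 99.8. Its folds were 20.3 in the vehicle list, 20.8 with 5-fluorouracil, 26.7 and 25.5 in the wild-type and knockout HSC lists, and 25.6 and 25.4 in the wild-type and knockout HPC lists. The region was 1341 and 1340 bp wide in the 16-week lists and 516 to 555 bp in the others, and the median width over all regions also differed, at 635 and 640 bp against 462 to 484 bp. Its paralogs were weaker. Gadd45b had start folds of 10.2, 10.6, 10.2, 11.4, 10.8 and 9.90 in the same order, and Gadd45g 4.77, 4.83, 6.46, 7.40, 8.83 and 10.4, with percentiles from 44.2 to 74.7. Within each list the Gadd45 starts were ordered by fold as Gadd45a, then Gadd45b, then Gadd45g, except in knockout HPC, where Gadd45g (10.4) stood just above Gadd45b (9.90).

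Ccng1, a cyclin and early p53 target, had start percentiles from 92.2 to 96.7. Sesn1 and Sesn2, the sestrins that restrain mTORC1 under stress, had start percentiles from 70.7 to 93.0 and from 78.7 to 90.9. The start of Btg2, an antiproliferative p53 target, had folds of 12.6 and 14.1 in the vehicle and 5-fluorouracil lists, 7.29 and 8.05 in wild-type and knockout HSC, and 5.77 and 6.43 in wild-type and knockout HPC. Zmat3, an RNA-binding p53 target, had the lowest single rank of any start, at percentile 1.23 in wild-type HSC, and reached 59.4 in the vehicle list. The remaining members of this group, Plk2 and Plk3 (stress-responsive polo-like kinases), Phlda3 (an inhibitor of Akt) and Trp53inp1 (a cofactor of p53), had a start region in every list, with percentiles from 33.6 for Plk2 in knockout HPC to 89.2 for Trp53inp1 with 5-fluorouracil.

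Of the cell death targets, the exonuclease gene Aen had start folds between 26.6 and 31.5 in the 6 lists, and Fas, a death receptor, between 16.8 and 23.6. Tnfrsf10b, the receptor of the death ligand TRAIL, was the single member that in some list lacked a region within 1 kb of its start. Its start region, chr14:69767075-69768225, had folds of 13.9 in the vehicle list, 10.7 with 5-fluorouracil, 10.5 and 8.75 in the wild-type and knockout HSC lists and 12.5 in that of wild-type HPC, and no region was listed in knockout HPC. It was weak where it was listed, with percentiles of 51.5, 38.9, 8.89, 2.25 and 23.8, and a region inside the gene, 6.99 kb from the nearer gene end, was in all 6 lists with folds of 13.7 to 17.2.

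The total of member regions rose with the length of the list, and the median per member did not follow it strictly. The median was 10 in the vehicle list, 9 with 5-fluorouracil, 6 and 5 in the wild-type and knockout HSC lists, and 8 and 7 in the wild-type and knockout HPC lists, against 7, 7, 4, 5, 6 and 5 for all protein-coding genes. When only the 40073 regions of highest −log10 p were kept in every list, a setting added after the data were seen, the members had 163 regions in the vehicle list, 167 with 5-fluorouracil, 175 and 164 in the wild-type and knockout HSC lists and 170 in either HPC list. With every deposited summit counted alone rather than merged, the vehicle list gave 711 and that of wild-type HSC 270. Over the 6 lists together Btg2 had the most regions, from 10 in wild-type HSC to 17 in wild-type HPC, and Xrcc5 and Chek1 had 2 or 3 in every list. The 50 kb windows are crowded with other genes, and the member was the nearest protein-coding gene for 35.7% to 39.4% of its regions. Between 32.8% and 48.0% of member regions lay at the start of some protein-coding gene, against 19.2% to 28.9% of all regions.

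**Figure D2:**
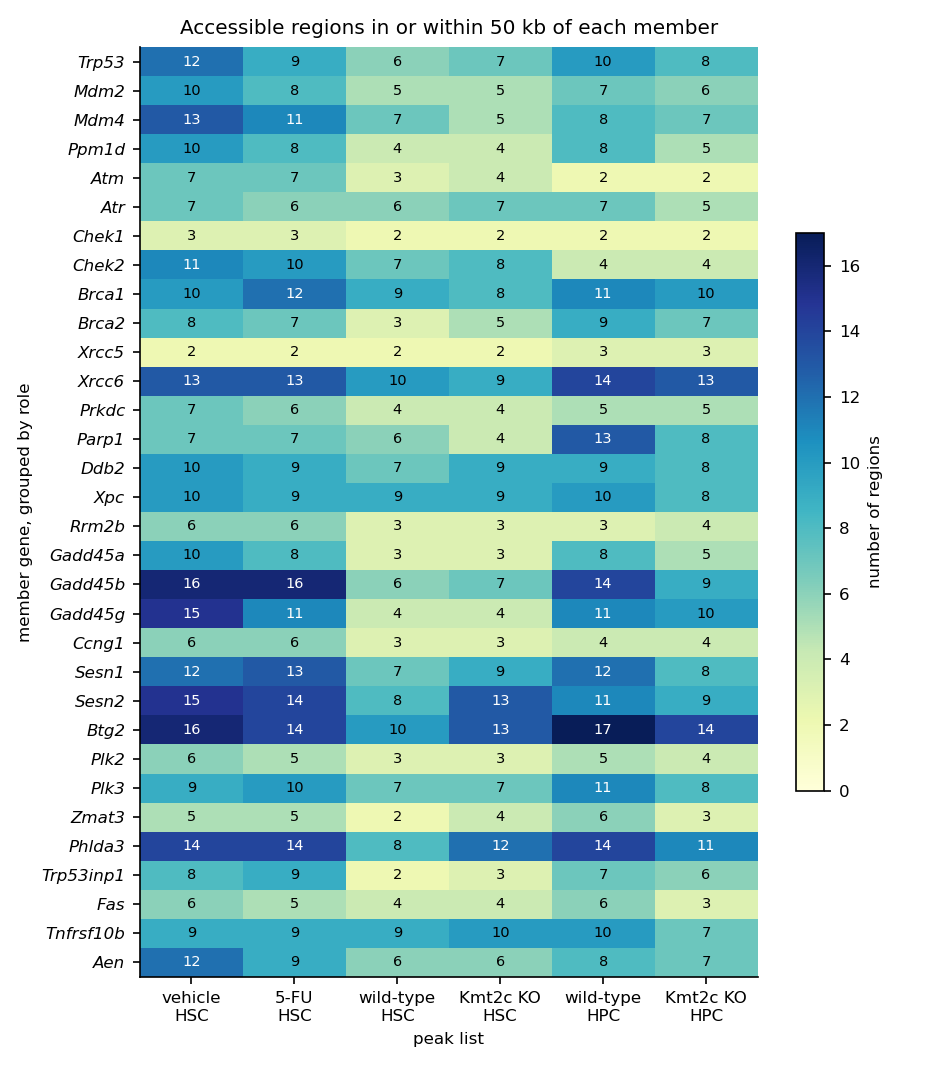
Number of accessible regions in or within 50 kb of each member (rows, grouped by role) in each of the 6 peak lists (columns); darker cells hold more regions. Btg2, Gadd45b, Phlda3, Sesn2 and Xrcc6 carry the most, Chek1 and Xrcc5 the fewest, and the 8-week HSC columns are the lightest.

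Joined over the 6 lists there were 353 member regions of 94178 in all. Of these, 133 (37.7%) were in all 6 lists, against 32.2% of all regions. The share was 34 of 41 at member starts (82.9%), 10 of 37 in the rest of the gene bodies (27.0%) and 89 of 275 in the flanks (32.4%). Starts are widely shared in general: of regions at the start of any protein-coding gene, 74.5% of the 102 near members and 63.0% of all were in every list, and elsewhere 22.7% and 25.9%. A further 47 (13.3%, against 10.8%) were in both 16-week HSC lists and no other, and 42 (11.9%, against 18.1%) were in a single list. Each of the 32 members had at least 1 region in all 6 lists. Away from member starts, those near Chek1, Phlda3 and Sesn2 ranked highest, at percentile 99.1 or more in every list. The first lay 41.2 kb upstream of Chek1, nearest to Stt3a, with folds from 20.7 to 24.1. The second, 12.9 kb upstream of Phlda3 on the side of Csrp1, had folds from 35.5 to 45.0, and the third, 5.21 kb upstream of Sesn2 at chr4:132515219-132516069, from 24.2 to 32.5. All were named after their values were seen.

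**Figure D3:**
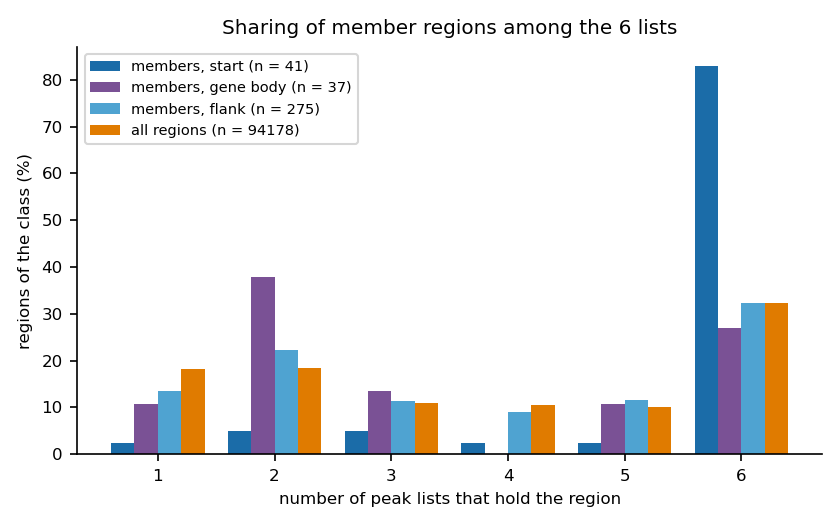
Share of regions (y axis, percent of each class) by the number of peak lists that hold them (x axis), for member regions at starts, in gene bodies and in flanks, and for all regions. The bar at 6 lists reaches 82.9% for member starts and 27.0% to 32.4% for the other classes.

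The first comparison asked where repeated 5-fluorouracil left HSC with regions that vehicle HSC lacked, or the reverse. Around the 32 genes these lists shared most of their regions. Of 281 regions in the 5-fluorouracil list, 7 overlapped no vehicle region (2.49%, interval 1.21 to 5.05), where all regions of that list gave 5.61%. Of 305 vehicle regions, 31 overlapped no 5-fluorouracil region (10.2%, 7.25 to 14.1), where all regions gave 16.2%. At the start of any protein-coding gene, 0 of 97 regions were found with 5-fluorouracil alone, which allows a share of up to 3.09%, where all start regions of that list gave 1.5%, and 3 of 100 in vehicle alone (3.00%), against 5.57%. The vehicle list is the longer, and with both lists at 71363 regions the shares were 13 of 281 (4.63%, all regions 8.93%) and 16 of 284 (5.63%, all regions 9.41%).

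The 7 regions found with 5-fluorouracil were weak, with a median percentile of 4.08 against 56.5 for shared ones. The one with the highest fold lay inside Sesn1, 28.6 kb from its upstream start, at chr10:41838895-41839446, with a fold of 8.37 and a percentile of 27.9, and it was in none of the other 5 lists. Regions near Plk3 (4.65), Brca2 (4.46) and Trp53inp1 (4.13) were also in a list of HPC or 8-week HSC. The other 3 were near Brca1, Ddb2 and Gadd45b, with folds of 2.45, 2.99 and 3.85. The Gadd45b region was also in knockout HSC, with a fold of 6.96. Ddb2 and Gadd45b were named after their values were seen. By net number Brca1, Sesn1, Plk3 and Trp53inp1 each had 1 region with 5-fluorouracil alone and 0 of vehicle alone.

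The 31 vehicle regions were spread over 18 members and were also weak, at a median percentile of 12.6 against 59.7. Gadd45g had 4 of them, Trp53 and Aen 3 each, and Mdm4 and Btg2 2 each, and none of these genes had a region with 5-fluorouracil alone. Mdm2 and Gadd45a, also with 2 of vehicle and 0 of 5-fluorouracil alone, shared the net number of Mdm4 and Btg2. The highest folds were 9.97 on the Lsm3 side of Xpc, 9.70 upstream of Atr, 7.05 at 26.1 kb upstream of Btg2 and 6.90 at 21.6 kb upstream of Trp53. In all, 17 members had more vehicle regions (53.1%, all genes 46.5%) and 4 more 5-fluorouracil regions (12.5%, all genes 9.30%). At equal list lengths these became 10 and 8, with no share over all genes computed beside them. Mdm4 then turned to 1 region with 5-fluorouracil alone and 0 of vehicle.

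**Figure D4:**
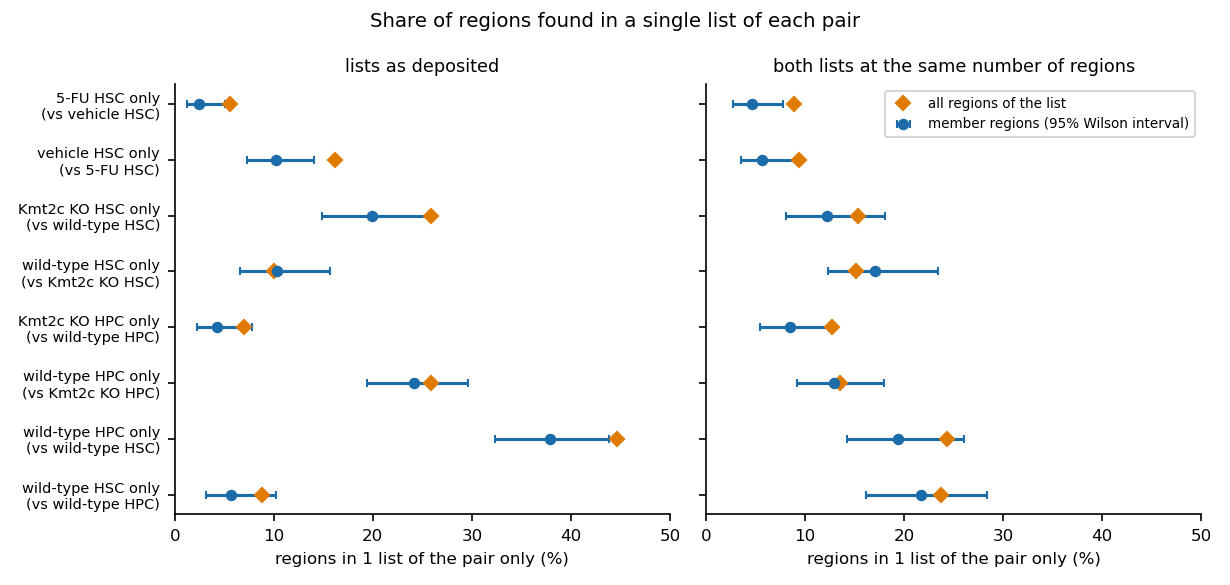
Percent of regions found in only 1 list of each pair (x axis), for member regions with their 95% Wilson interval and for all regions of the list, with the lists as deposited (left) and with both lists of a pair cut to the same number of regions (right). The left panel runs from 2.49% to 37.9% for members. On the right the member shares within each pair lie closer together. Their order turns for knockout and wild-type HSC (12.2% and 17.1%) and for wild-type HPC and HSC (19.4% and 21.7%).

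The second comparison set knockout HSC against wild-type HSC, to see where the loss of Kmt2c left other regions open. Of 196 member regions in knockout HSC, 39 overlapped none of wild-type HSC (19.9%, 14.9 to 26.0), against 25.9% of all its regions. Of 175 in wild-type HSC, 18 overlapped none of the knockout (10.3%, 6.61 to 15.7), against 9.99%. Regions of the knockout alone were most numerous by net number near Sesn2 (5 against 0 of the wild type), Phlda3 (4 against 0), Btg2 (4 against 1), Ddb2 (2 against 0) and Sesn1 (3 against 1), and Zmat3 and Brca2 (2 against 0 each) had the same net number as the last pair. The reverse held near Parp1 (0 against 2) and near Mdm4, Brca1 and Xrcc6 (0 against 1 each). The knockout list is the longer of the pair, and with both at 40073 regions the order of the shares turned, at 20 of 164 (12.2%, all regions 15.3%) in the knockout and 30 of 175 (17.1%, all regions 15.1%) in the wild type. Sesn2 then stood at 3 against 0, Phlda3 at 2 against 0 and Zmat3 at 2 against 0. Ddb2 stood at 0 against 0, Brca2 at 1 against 2, Xrcc6 and Xpc at 0 against 2 and Parp1 at 0 against 3. With the lists as deposited, 13 members had more knockout regions (40.6%, all genes 47.7%) and 4 more wild-type regions (12.5%, all genes 9.44%). At equal lengths these became 6 and 15, with no share over all genes computed beside them. Away from gene starts the knockout share was 29.9% for members and 30.3% for all regions. The wild-type share there was 15 of 91 for members (16.5%) and 11.8% for all regions. With the weakest 25% of regions removed from both lists, the wild-type share was 4.65% for members and 5.77% for all regions.

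The strongest knockout regions that wild-type HSC lacked were not particular to the knockout list. They lay 41.2 kb upstream of Btg2 (fold 23.1), 114 kb from the Atm start on the far side of the gene (18.1), 39.6 kb downstream of Gadd45g (18.0) and 26.1 kb upstream of Btg2 (17.3), and each was also in the vehicle list. The strongest wild-type regions that the knockout lacked were near Ccng1 (8.28 kb upstream, fold 12.9), Xrcc6 (11.9), Fas (11.3) and Parp1 (32 kb upstream, 11.0), and each was also in the vehicle, 5-fluorouracil and wild-type HPC lists. At Ccng1 the knockout list held a neighbouring region that wild-type HSC lacked, 7.86 kb upstream, with a fold of 17.3. Of the neutrophil and macrophage genes, S100a8 (8.13) and Adgre1 (11.9) had a start region in knockout HSC, and 0 of 3 had one in wild-type HSC; their part in these counts was not tested.

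In HPC, the third comparison, the knockout list was the shorter of the pair. Of 213 member regions in knockout HPC, 9 overlapped none of wild-type HPC (4.23%, 2.24 to 7.83), against 6.96% of all its regions. Of 269 in wild-type HPC, 65 overlapped none of the knockout (24.2%, 19.4 to 29.6), against 25.9%, and away from gene starts 31.2% against 29.0%. At 52840 regions in both lists these became 18 of 213 (8.45%, all regions 12.7%) and 29 of 224 (12.9%, all regions 13.5%). Wild-type regions alone were most numerous by net number near Parp1 (5 against 0 of the knockout), Gadd45b (6 against 1), Sesn1 (4 against 0), Btg2 (3 against 0) and Phlda3 (3 against 0), and by the same count Rrm2b alone had more knockout regions (1 against 0). Ppm1d, Gadd45a, Plk3, Zmat3, Fas and Tnfrsf10b shared the net number of Btg2 and Phlda3. In all, 25 members had more wild-type regions (78.1%, all genes 58.3%) and 1 more knockout regions (3.12%, all genes 5.28%). At equal lengths these became 13 and 8, with no share over all genes computed beside them. Within 10 kb of the members the knockout share was 2.20%, and no share of all regions was computed for that window. At equal lengths Parp1 stood at 3 against 0, Btg2 at 3 against 0, Gadd45b at 3 against 1, Sesn1 at 2 against 0 and Phlda3 at 1 against 0, while Tnfrsf10b stayed at 3 against 0 and Gadd45g stood at 0 against 3 of the knockout.

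By fold, the strongest wild-type HPC regions without a knockout counterpart lay 41.2 kb upstream of Btg2 (20.9), 36.8 kb downstream of Sesn2 (20.1), 41.4 kb downstream of Gadd45a (19.1) and 70.4 kb from the nearer start of Sesn1 (16.6). Those of the knockout lay near Trp53 (11.7), Rrm2b (9.49), Gadd45g (9.45) and Aen (8.72). Of the 353 joined member regions, 0 were in both knockout lists and in neither wild-type list of 8 weeks, which allows a share of up to 0.850%, against 0.553% of all regions. The reverse pattern held for 3 regions, near Fas, Mdm2 and Parp1 (0.850%, all regions 0.95%), and these genes were named after their values were seen. The Btg2 region 41.2 kb upstream crossed the genotypes: it was in knockout HSC (23.1) and not wild-type HSC, but in wild-type HPC (20.9) and not knockout HPC.

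The last comparison set wild-type HPC against wild-type HSC, the list with the fewest regions. Of 269 member regions in HPC, 102 overlapped none of HSC (37.9%, 32.3 to 43.8), against 44.6% of all its regions, and of 175 in HSC, 10 overlapped none of HPC (5.71%, 3.13 to 10.2), against 8.77%. Net numbers were largest near Gadd45b (9 of HPC alone against 1 of HSC), Gadd45g (8 against 1), Btg2 (8 against 1), Parp1, Brca2 and Phlda3 (6 against 0 each), while Chek2 (0 against 3) and Atm (0 against 1) had more of HSC. With both lists at 40073 regions the shares were 33 of 170 (19.4%, all regions 24.3%) and 38 of 175 (21.7%, all regions 23.7%). With the weakest 25% removed the HSC share was 2.33% for members and 7.54% for all regions. At equal lengths Btg2 (6 against 2), Phlda3 (5 against 1), Gadd45g (4 against 1) and Chek2 (0 against 4) kept their direction, Parp1 stood at 1 against 0, Gadd45b turned to 2 against 3, Brca2 to 0 against 1 and Atr from 1 against 0 to 0 against 4. In all, 28 members had more HPC regions (87.5%, all genes 70.3%) and 2 more HSC regions (6.25%, all genes 2.77%). At equal lengths these became 7 and 12, with no share over all genes computed beside them. Away from gene starts the member share of HPC alone was 51.8%, against 51.0% of all regions. The progenitor gene Fcgr3 (19.7) and the macrophage gene Adgre1 (27.5) had a start region in wild-type HPC and none in wild-type HSC, Flt3 had one in both (21.7 and 25.1) and Mpo in neither; their part in these counts was not tested.

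Over all 6 lists, 23 of 353 member regions (6.52%, all regions 4.02%), near 15 members, were in both HPC lists and none of the 4 HSC lists, and 4 (1.13%, all regions 1.83%), near Chek2, Brca1 and Gadd45g, were in all 4 HSC lists and neither HPC list. A further 7 (1.98%, all regions 2.65%) were in every HSC list except the short wild-type one and in neither HPC list. None of either class lay at a member start. The 16-week HSC lists differ from the HPC lists in age, in injections and in list length as well as in cell type. These differences cannot be told apart from those lists alone. The regions named in the next paragraphs were chosen after their values were seen.

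Regions of both HPC lists alone included one inside Xrcc6, the Ku70 gene, 11.6 kb from its start at chr15:82027680-82028271, with folds of 23.3 in wild-type and 24.6 in knockout HPC and percentiles of 95.7 and 93.1. A second Xrcc6 region, 47.9 kb upstream on the side of Pmm1, had folds of 21.7 and 22.4. Near Gadd45g, a region 45.5 kb upstream toward Sema4d, chr13:51800808-51801422, had 26.3 and 24.7, and near Phlda3 one 47.8 kb downstream had 17.9 and 19.0. Mdm2 had one 44.5 kb upstream, with 22.9 and 20.0. Inside the genes there were also regions at Parp1 (19.1 kb from the start, 14.7 and 13.6) and Brca2 (17.5 kb, 15.8 and 15.1). Each of these was in the lists of both genotypes of HPC and in no HSC list.

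Regions of all 4 HSC lists alone were fewer. The strongest lay beyond the downstream end of Brca1, 66.3 kb from its start at chr11:101485368-101486165, with folds of 19.4 in the vehicle list, 20.5 with 5-fluorouracil, 18.7 in wild-type HSC and 20.5 in knockout HSC. One 4.74 kb upstream of Gadd45g had 7.96, 8.61, 8.42 and 11.3. Chek2 had a pair, 3.81 kb upstream (5.40, 5.23, 6.30 and 5.07) and 83.6 kb downstream inside the neighbouring Ttc28 interval (14.2, 10.4, 11.3 and 10.3). Gadd45g thus had an HSC region close to its start and an HPC region far upstream.

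At Btg2 a region of all 6 lists, ranked higher in the HSC lists, stood near a region of both HPC lists alone. A region 5.78 kb downstream of the start, just past the gene at chr1:134072869-134073640, had folds of 20.0 in the vehicle list, 20.0 with 5-fluorouracil, 13.6 in wild-type HSC and 13 in knockout HSC, and 4.77 and 3.48 in wild-type and knockout HPC. Within its own list it ranked at percentile 99.7, 99.6, 94.9 and 94.8 in the HSC lists and at 32.4 and 1.88 in the HPC lists. The neighbouring region 11.8 kb downstream ranked between 97.6 and 99.5 in every list, so within each HPC list the pair stood far apart and within each HSC list close together. In the other direction, a region 3.98 kb upstream, chr1:134082903-134083415, was in both HPC lists alone (11.2 and 11.0, percentiles 81.0 and 79.6). A region 53 kb downstream, nearest to Fmod, had 32.6 and 24.0 in the HPC lists, 5.83 in the vehicle list and was in no other.

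**Figure D5:**
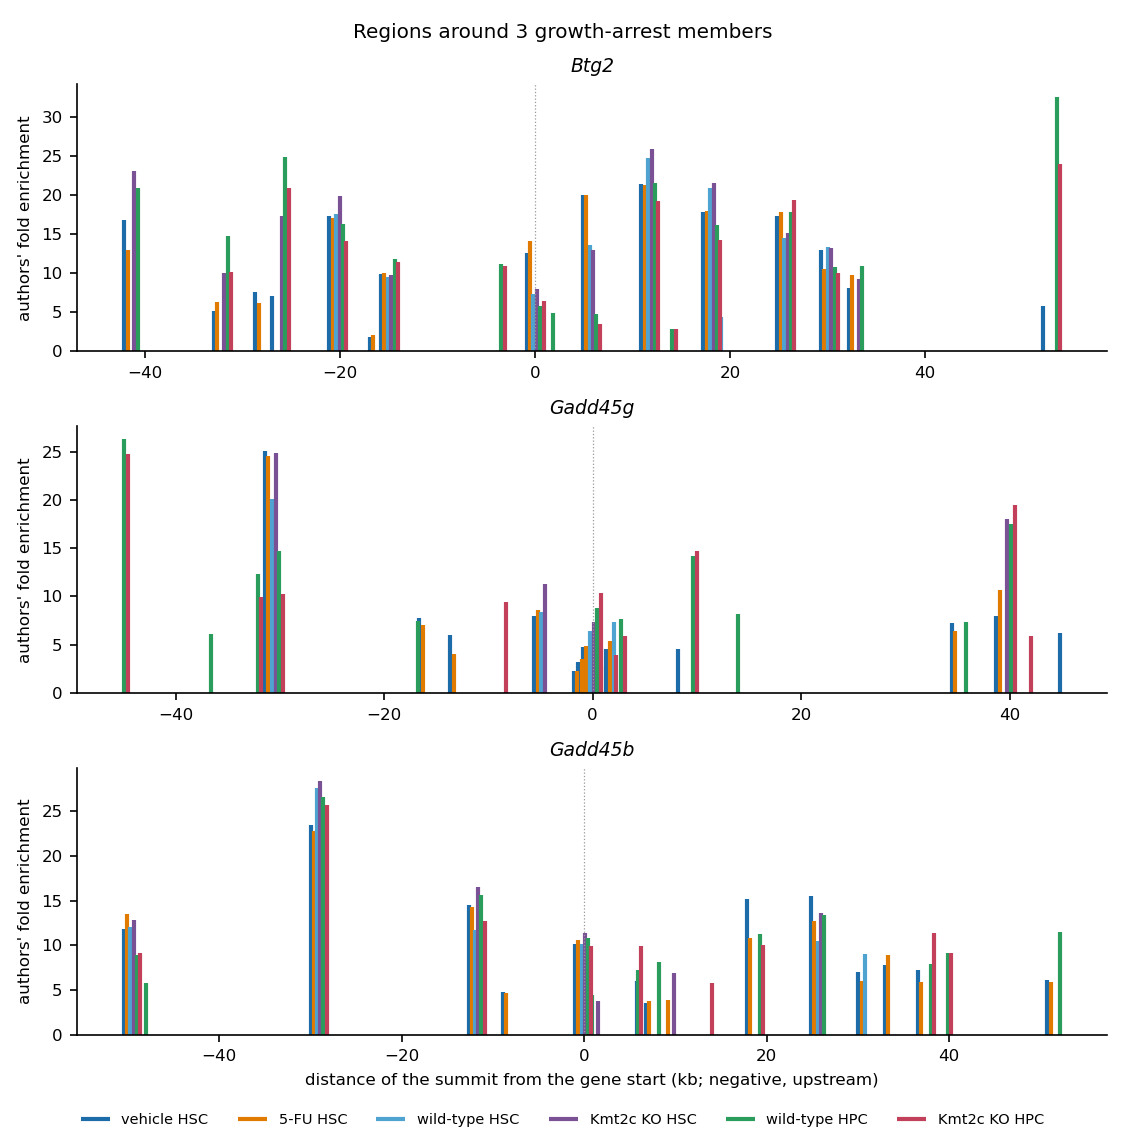
Fold enrichment of each region (y axis) by its distance from the start of Btg2, Gadd45g and Gadd45b (x axis, kb, negative upstream), with 1 bar per list drawn side by side at a region. At Btg2 the bars 5.78 kb downstream run from 20.0 in the 16-week HSC lists to 3.48 in knockout HPC, and at Gadd45g the bars 45.5 kb upstream are of the HPC lists alone.

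Graded patterns of the same kind were seen at regions that most lists held. Inside Sesn2, 15.7 kb from its start, folds were 6.06 in the vehicle list, 7.31 with 5-fluorouracil, 11.2 in knockout HSC, 21.7 in wild-type HPC and 22.9 in knockout HPC, with no region in wild-type HSC, and the percentiles were 42.5, 48.5, 40.8, 92.4 and 92.2. Downstream of Parp1, 48.1 kb from its start, folds were 11.7, 11.7, 16.4, 25.4, 33.5 and 33.1, and 33.1 kb from its start 12.4, 11.8, 13.9, 22.6, 28.4 and 25.7. At these 3 regions the HPC lists gave the highest fold and percentile, knockout HSC came next by fold, and the 16-week HSC lists gave the lowest folds of the lists that held them. Over all regions the median fold was also lowest in the 16-week lists, at 10.2 and 10.4 against 13.7 to 15.1, and by percentile wild-type HSC was lowest at both Parp1 regions (36.5 and 30.3). The start regions of Sesn2 and Parp1 did not have this order: Parp1 ran 19.7, 17.6, 14.7, 16.6, 14.2 and 12.1, highest in the vehicle list, and Sesn2 stayed between 13.2 and 15.7.

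Other genes of the pathway were looked at only for their starts. Of 60 further genes for p53 signalling, checkpoint and repair, 58 had a start region in the vehicle and 5-fluorouracil lists, 53 in wild-type HSC, 56 in knockout HSC and 57 in each HPC list. The p53 target Bax, which opens the mitochondrial membrane in apoptosis, had a start fold of 7.69 in the vehicle list, 8.84 with 5-fluorouracil and 5.61 in wild-type HPC and no start region in the other 3. Pidd1 (a p53-induced death domain protein) and Fanci (of the Fanconi pathway) lacked one in wild-type HSC alone. Of the p53 relatives, Trp63 had a start region listed only in knockout HPC (8.24) and Trp73 only in the vehicle (3.30) and 5-fluorouracil (2.89) lists.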

How the data were processed

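The labels describe 18 ATAC-seq samples, and each group names 1 deposited peak list. Bowtie2, MACS2 and the build mm10 (GRCm38) are named in the submitters' processing notes; tool versions, how samples were pooled and which filter was applied were not given in the sources used here. Other files were not analysed here. Per row, the authors deposited a fold enrichment, which is a ratio to local background, a −log10 p, a score, which was not used, and a summit offset in bp. Overlapping rows were merged into regions (1 bp or more), each with the values of its row of highest −log10 p. A region was in another list where it overlapped by at least 1 bp. Depth is unknown, so precision is given only as 95% Wilson intervals over regions, and no test was made.

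Genes came from RefSeq GRCm38.p6, which has no exons here. Its gene table has no strand, so starts came from the promoter table, or from either gene end where a gene has no entry (Prkdc, Trp53inp1, Zmat3, Ddb2, Xpc, Tnfrsf10b and Rrm2b). Named in each comparison and direction were up to 5 members by net number of single-list regions (ties by the larger total over the 6 lists), up to 4 regions of highest fold in a single list of the pair, and members lacking a start region; other names are marked. An item among the other pathway genes is not reported here. Members and lists were chosen with earlier results of these data known. The functions were tested on simulated lists. Python 3.11.15, pandas 2.3.3, numpy 2.4.6, scipy 1.17.1 and matplotlib 3.10.9 were used. Alternatives were a 50% overlap, the weakest 25% of regions removed, equal list lengths, a 10 kb window, nearest-gene regions, a 200 bp start window, single summits and 1 mismatch in the decamer.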

Additional observations from a re-analysis of the deposited data

How the results depend on the processing

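No paired analysis was possible because each group has a single list for all its samples and no value per sample. Overlap by at least 50% of the shorter region and the nearest-gene rule each left all 8 single-list shares close to their values, and the 200 bp start window all 6 start counts. At equal list lengths 7 of the 8 shares left their 95% Wilson interval (5-fluorouracil alone, at 4.63% against 2.49%, stayed within it): 5.63% for vehicle, 12.2% for knockout and 17.1% for wild-type HSC, 8.45% for knockout and 12.9% for wild-type HPC, and, between wild-type cells, 19.4% for HPC and 21.7% for HSC. That alternative removes the weak end of the longer list by construction. Within 10 kb, vehicle gave 7.20%, knockout HPC 2.20% and wild-type HPC 19.1%, with no share of all regions computed beside them. With the weakest 25% removed, wild-type HSC gave 4.65% against the knockout and 2.33% against HPC. Single summits gave 711 member regions for vehicle, 658 for 5-fluorouracil, 270 for wild-type HSC and 410 for wild-type HPC. At the shortest length, added after the data were seen, these lists gave 163, 167, 175 and 170. With 1 mismatch the decamer was in 14 of 25 genes (56.0%, all genes 41.0%).

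The net number of regions was followed for the members named by rule, up to 5 in each comparison and direction. Among these it changed sign at equal lengths near Mdm4 (5-fluorouracil minus vehicle, 1) and Gadd45b (wild-type HPC minus HSC, -1). Members not so named also changed sign at equal lengths, such as Gadd45a (1) for 5-fluorouracil minus vehicle and Gadd45g (3) for knockout minus wild-type HPC. Brca2 (-1) and Atr (-4) did so for wild-type HPC minus HSC. With the weakest 25% removed, only the members named by rule were followed. Their net number changed sign near Brca1 (-2), Sesn1 (-1) and Plk3 (-1) for 5-fluorouracil minus vehicle. The same held near Brca1 (1) and Xrcc6 (1) for knockout minus wild-type HSC, and near Chek2 (1) for wild-type HPC minus HSC. The cause of these changes was not tested. Read depth is unknown, so a region missing from a list is not shown to be closed.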
